A study of Homo sapiens with 8 samples.

Results

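The feedback inhibitors of the MAP kinase pathway described here are 10 genes: the dual-specificity phosphatases *DUSP1*, *DUSP4*, *DUSP5*, *DUSP6* and *DUSP10*, the Sprouty genes *SPRY1*, *SPRY2* and *SPRY4*, and the SPRED genes *SPRED1* and *SPRED2*. They were chosen by name from 14528 genes with a symbol, and 16 of the 24812 listed transcripts belonged to them. SQ20B is an established cell line from a human head and neck squamous cell carcinoma. Polyadenylated RNA was sequenced from 4 biological replicates labelled normoxia and from 4 held at 0.5% O2 for 16 h, a treatment text that the labels repeat for the normoxic samples, whose own oxygen level they do not give. Both groups were the same line in the same medium, and no gene was altered in either. Expression is given as FPKM, the number of fragments assigned to a transcript scaled for its length and the depth of the library, and each condition had 1 value that the authors formed over its replicates. Neither read counts nor values per replicate were analysed here. The spread between replicates and the number of reads behind a value therefore cannot be read from the table, and every difference below is a description without a test or an error.

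Growth factor receptors switch on RAS, which activates the kinases RAF, MEK and ERK in turn, and active ERK moves into the nucleus to change transcription. Among the genes that ERK turns on are its own inhibitors, so that the signal is limited by what it produces. The DUSP proteins listed here remove the activating phosphates from MAP kinases, while Sprouty and SPRED proteins act further upstream, between the receptor and RAF. In squamous epithelium the pathway drives proliferation, and in squamous carcinomas it is often held active by receptors of the EGF family.

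The DNA before the start sites of these genes is shown first, because the motifs through which hypoxia and cyclic AMP act on transcription are read there. RefSeq sequences (GRCh38.p14) were used for 8 of the 10 genes with 13 start sites, and *DUSP4* and *DUSP5* were not searched. The 250 bases before each start were searched on both strands for the core of the hypoxia response element (ACGTG and GCGTG), the cyclic AMP response element (TGACGTCA), the AP-1 site (TGANTCA) and the serum response element. A core of the hypoxia response element was present before a start of 5 of the genes, *DUSP1*, *DUSP6*, *DUSP10*, *SPRY1* and *SPRED2*, in 5 of the 13 sequences. Over all 35116 sequences of this length, 43.2% held such a core, 18.5% held ACGTG and 32.2% held GCGTG. *DUSP1* was the only one of the 8 genes with ACGTG, read on both strands in CACGTG, and the only one with TGACGTCA, which 1.65% of all sequences held. The AP-1 site and the serum response element occurred in none of the 13 sequences, against 6.57% and 1.16% of all. The full 250 bases are printed for both starts of *DUSP10*, the only one of the 10 genes with a 1.5-fold higher FPKM in hypoxia, and the stretch around the matches for the others. Capitals mark the matches, in which CACGC is GCGTG on the other strand, and a match is a string of letters and not evidence of binding.
DUSP10, upstream start, chr1:221742090-221742339, minus strand: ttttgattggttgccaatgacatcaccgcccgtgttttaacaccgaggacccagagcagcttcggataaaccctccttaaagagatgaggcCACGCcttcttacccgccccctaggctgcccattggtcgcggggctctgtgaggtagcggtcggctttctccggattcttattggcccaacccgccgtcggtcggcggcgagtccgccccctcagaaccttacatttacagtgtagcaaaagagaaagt
DUSP10, downstream start, chr1:221736901-221737150, minus strand: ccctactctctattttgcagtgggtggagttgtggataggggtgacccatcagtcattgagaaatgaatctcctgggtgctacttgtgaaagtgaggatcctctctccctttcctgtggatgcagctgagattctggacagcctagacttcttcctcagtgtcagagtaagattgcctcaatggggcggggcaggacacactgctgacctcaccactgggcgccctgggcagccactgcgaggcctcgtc
DUSP1, chr5:172771288-172771330, minus strand: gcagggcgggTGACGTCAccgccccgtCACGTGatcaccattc
DUSP6, chr12:89352540-89352564, minus strand: ccttccgcagCACGCtcattggctg
SPRY1, chr4:123396735-123396759, plus strand: atcaccggagGCGTGtcctggagtg
SPRED2, chr2:65432660-65432684, minus strand: aggaagcgggGCGTGctcagtaggc

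All 10 genes passed the limit used in every comparison, an average of 0.5 FPKM or more across the conditions, as did 12106 genes in all. Their levels spanned a wide range, from 0.589 FPKM for *SPRY4* to 21.8 FPKM for *DUSP10* in normoxia, where the median of all genes that passed was 9.23 over the conditions. The 3 most abundant were *DUSP10*, *DUSP5* and *DUSP6*, in that order in normoxia and in hypoxia. *SPRY4* and *SPRED2* were the lowest in both. In normoxia the order between them ran *DUSP4*, *SPRED1*, *SPRY2*, *SPRY1* and *DUSP1*, and in hypoxia it ran *SPRED1*, *SPRY1*, *DUSP4*, *SPRY2* and *DUSP1*. *DUSP4* stood at place 4 in normoxia against 6 in hypoxia, and *SPRY1* at place 7 and 5. Which neighbours in these orders differ beyond their spread could not be said without replicate values.

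**Figure D1:**
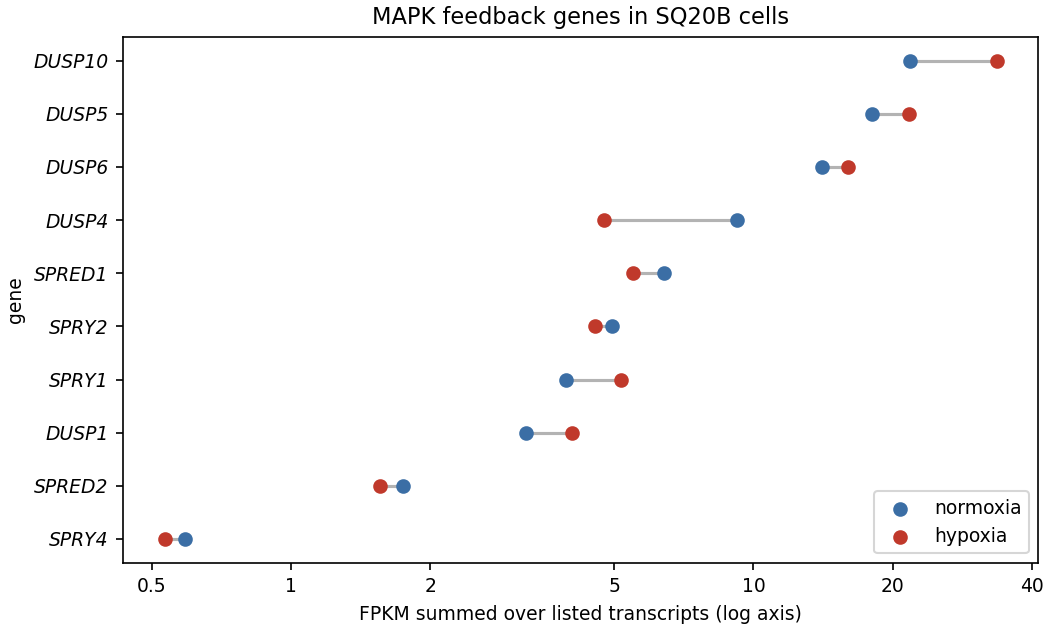
FPKM of each gene in normoxia (blue) and in hypoxia (red) on a log axis, summed over its listed transcripts, with genes ordered by their level in normoxia. The widest gaps are those of *DUSP4*, which lay lower in hypoxia (4.75 against 9.23), and *DUSP10*, which lay higher (33.6 against 21.8).

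Changes are given as log2((hypoxia + 0.1)/(normoxia + 0.1)) of the summed FPKM, and a gene was called at 1.5-fold or more, which is 0.58 on this scale. One of the 10 genes was called higher, *DUSP10*, and one lower, *DUSP4*. Among all genes 9.95% were called higher and 11.2% lower, so a count of 1 in 10 in each direction is near the background. Of the 10 genes, 5 had a change above 0 and 5 below 0, where 56.4% of all genes were below 0. Their median was 0.04 against -0.07 over all genes. With the columns scaled to equal FPKM sums, 9 of the 10 genes were above 0 and 1 below. The median over all genes also rose, to 0.15, and the share of all genes above 0 on that scale was not computed. At 1.2-fold, 4 were higher (*DUSP1*, *DUSP5*, *DUSP10* and *SPRY1*), where 23.8% of all genes were, and only *DUSP4* was lower, where 33% of all genes were. At 2-fold none was higher or lower, against 3.21% and 2.62% of all genes. Scaling the columns to equal FPKM sums raised the log2 changes by up to 0.23, and by less at low FPKM, because the normoxic column added up to 536005 FPKM and the hypoxic column to 458431. On that scale *SPRY1* was called higher beside *DUSP10*, and *SPRY2*, *SPRY4*, *SPRED1* and *SPRED2* lay slightly above 0 instead of below it. The shares of all genes called on that scale were not computed.

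**Figure D2:**
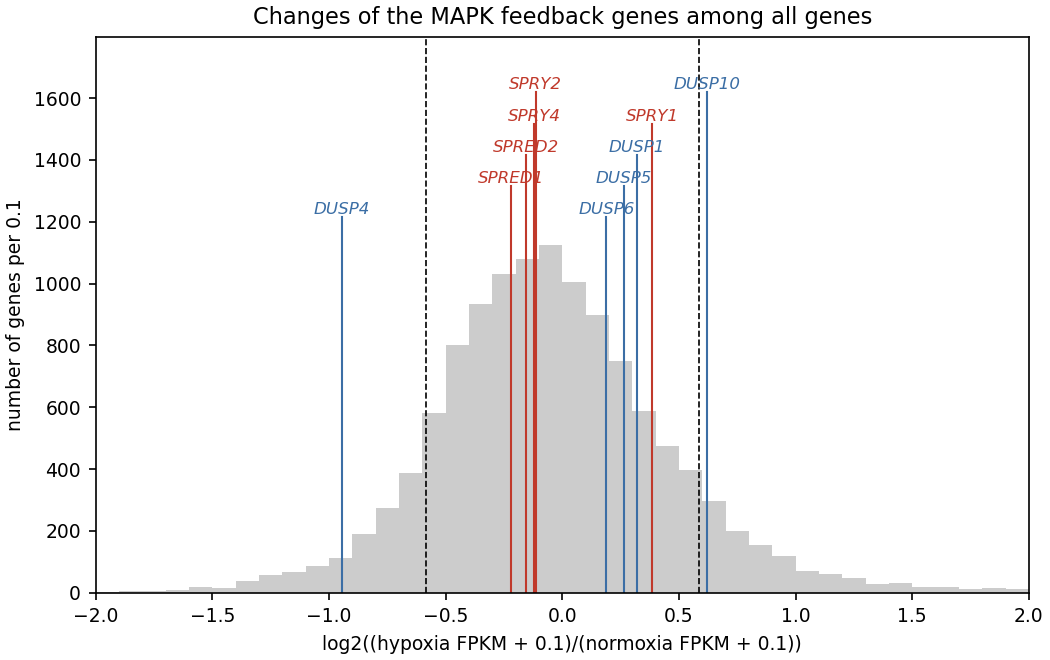
Number of genes per 0.1 of log2 change for the 12106 genes that passed the FPKM limit (grey), drawn from -2 to 2, with the phosphatases (blue) and the Sprouty and SPRED genes (red) marked by lines whose heights carry no value. Dashed lines mark 1.5-fold, and *DUSP4* (-0.95) and *DUSP10* (0.62) are the genes outside them.

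*DUSP10*, also known as MKP-5, prefers p38 and JNK over ERK as substrates. It lies on chromosome 1 of hg19 (221874764 to 221915516, minus strand) and was listed with 1 of its 3 curated RefSeq transcripts, NM_007207, so that its values are those of this transcript. Its FPKM was 21.8 in normoxia against 33.6 in hypoxia, which made it the most abundant of the 10 genes in both. The difference was 11.8 FPKM and the log2 change 0.62, or 1.54-fold higher, just past the limit for a call. A change of this size or larger, in either direction, was found for 19.0% of all genes. Its share of the summed FPKM of the 5 phosphatases was 32.8% in normoxia against 41.9% in hypoxia. Of its start sites printed above, the upstream one held a GCGTG match and the downstream one held none.

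*DUSP4*, or MKP-2, is a nuclear phosphatase that ERK signalling induces and that acts on ERK, p38 and JNK. It lies on chromosome 8 of hg19 (29190579 to 29208267, minus strand), and its summed FPKM was 9.23 in normoxia against 4.75 in hypoxia. The log2 change of -0.95 (1.93-fold lower) was the largest among the 10 genes, and 6.77% of all genes had a change as large in either direction. Both of its listed transcripts were called lower, although NM_057158 was not with equal FPKM sums (-0.46) or with a pseudocount of 1 (-0.37). NM_001394, the more abundant, was listed at 7.90 FPKM in normoxia against 3.94 in hypoxia. NM_057158, which starts at another first exon and encodes a shorter protein, was listed at 1.33 and 0.807 FPKM. The split between them was nearly level, with NM_001394 at 85.6% of the summed FPKM in normoxia against 83.0% in hypoxia. *DUSP4* made up 13.9% of the summed FPKM of the 5 phosphatases in normoxia against 5.92% in hypoxia. The ratio of *DUSP10* to *DUSP4* FPKM was 2.36 in normoxia against 7.08 in hypoxia.

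The remaining phosphatases lay above 0 without reaching the limit for a call. *DUSP5*, a nuclear phosphatase that acts on ERK alone among the MAP kinases, lies on chromosome 10 of hg19 (112257625 to 112271302, plus strand). Reads from its pseudogenes *DUSP5P1* and *DUSP5P2* could have been counted with it, which was not tested. It was listed at 18.1 FPKM in normoxia against 21.7 in hypoxia, a log2 change of 0.26. *DUSP6*, or MKP-3, is its cytoplasmic counterpart, also selective for ERK, and lies on chromosome 12 (89741602 to 89746636, minus strand). Its summed FPKM was 14.1 in normoxia against 16.0 in hypoxia, a log2 change of 0.19. *DUSP1*, or MKP-1, is an immediate early gene whose product acts on p38 and JNK as well as ERK, and lies on chromosome 5 (172195093 to 172198203, minus strand). It had 3.22 FPKM in normoxia against 4.05 in hypoxia, a log2 change of 0.32. This gene, whose upstream sequence held both CACGTG and TGACGTCA, was listed 1.25-fold higher, and 48.8% of all genes had a change at least as large in either direction. A link between the sequence and the change was not tested. Summed over the 5 phosphatases, the FPKM was 66.4 in normoxia against 80.1 in hypoxia. An annotated antisense gene overlaps exons of *DUSP6*, and whether the strand was used in counting is not given in the sources used here, so that reads from it cannot be told apart from those of *DUSP6*.

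Sprouty proteins bind adaptor and kinase components below receptor tyrosine kinases and reduce the activation of RAS and RAF. *SPRY1* lies on chromosome 4 of hg19 (124317950 to 124324915, plus strand), and its summed FPKM was 3.94 in normoxia against 5.17 in hypoxia. Its log2 change of 0.38 was the highest of the Sprouty and SPRED genes and the only one of them above 0, although with equal FPKM sums all 5 were. *SPRY2*, on chromosome 13 (80910112 to 80915086, minus strand), was listed at 4.94 FPKM in normoxia against 4.55 in hypoxia, a log2 change of -0.11 that became 0.11 with equal FPKM sums. *SPRY4*, on chromosome 5 (141689992 to 141704620, minus strand), was near the FPKM limit, with 0.589 FPKM in normoxia against 0.534 in hypoxia, a log2 change of -0.12 that became 0.07 with equal FPKM sums. Only NM_001127496 of *SPRY4* was listed, and the other 3 curated RefSeq transcripts of this gene were not analysed here. Its level is therefore that of 1 transcript. The curated transcripts are those of the GRCh38.p14 annotation and not of the hg19 annotation used for the FPKM. Whether the unlisted ones were missing from the latter or not expressed is not known here. How far the value stands for the whole gene is thus not known. The same holds for *SPRY2*, with 1 of 4 curated transcripts listed, and in part for *SPRY1*, with 4 of 5.

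SPRED proteins carry a Sprouty-type domain and bring the RAS inhibitor neurofibromin to the membrane. *SPRED1* lies on chromosome 15 of hg19 (38545052 to 38649450, plus strand) and was listed at 6.41 FPKM in normoxia against 5.49 in hypoxia, a log2 change of -0.22 that became 0.0025 with equal FPKM sums. *SPRED2* lies on chromosome 2 (65537985 to 65659656, minus strand) and had a summed FPKM of 1.75 in normoxia against 1.56 in hypoxia, a log2 change of -0.16 that became 0.06 with equal FPKM sums. *NF1*, which encodes neurofibromin and is named after its value was seen, was more abundant than either, with 17.1 FPKM in normoxia against 18.9 in hypoxia. The summed FPKM of the 5 Sprouty and SPRED genes was nearly level, at 17.6 in normoxia against 17.3 in hypoxia. Their log2 changes ran from -0.22 to 0.38, a narrower range than the -0.95 to 0.62 of the 5 phosphatases. The difference between these groups was not tested.

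Of the 10 genes, 6 were listed with a single transcript and 4 with more. Of the 16 transcripts, 14 reached the FPKM limit, of which 2 were called higher and 3 lower. Among all 18190 transcripts that passed this limit, 10.5% were called higher and 14.3% lower. The called transcripts were NM_007207 of *DUSP10* and NM_001258039 of *SPRY1* on the higher side, and both transcripts of *DUSP4* and NM_005841 of *SPRY1* on the lower side. *SPRY1* was thus the only one of the 10 genes with called transcripts in opposite directions, although with a pseudocount of 1 the change of NM_005841 was -0.43 and no longer called.

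Within *SPRY1*, NM_001258039 was listed at 2.14 FPKM in normoxia against 3.71 in hypoxia, a log2 change of 0.77. NM_005841 was listed at 1.07 FPKM in normoxia against 0.531 in hypoxia, a log2 change of -0.89. NM_199327 was listed at 0.592 and 0.582 FPKM, and NM_001258038 lay below the limit at 0.139 and 0.351. The share of NM_001258039 in the summed FPKM of the gene was 54.3% in normoxia against 71.7% in hypoxia, while that of NM_005841 was 27.1% and 10.3%. The 4 transcripts share 1 locus, and Cufflinks estimates how the reads they have in common are divided between them, so these values are not independent of each other.

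*SPRED2* also had transcripts on either side of 0, neither of them called. NM_181784 was listed at 1.07 FPKM in normoxia against 0.714 in hypoxia (log2 change -0.52), and NM_001128210, which starts at another first exon, at 0.680 and 0.844 FPKM (0.28). NM_181784 made up 61.1% of the summed FPKM in normoxia against 45.8% in hypoxia, so that the transcript with the higher listed value was not the same in both. These values were low, and Cufflinks also estimated how reads common to both transcripts were divided. Whether the order differed beyond the error of these estimates was not tested. *DUSP6* came almost wholly from NM_001946, with 97.9% of the summed FPKM in normoxia against 95.8% in hypoxia. Its shorter splice form NM_022652 was listed at 0.300 FPKM in normoxia against 0.676 in hypoxia, and its mean lay just below the FPKM limit. With equal FPKM sums the mean of NM_022652 passed that limit, and it was called higher with a log2 change of 1.16.

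**Figure D3:**
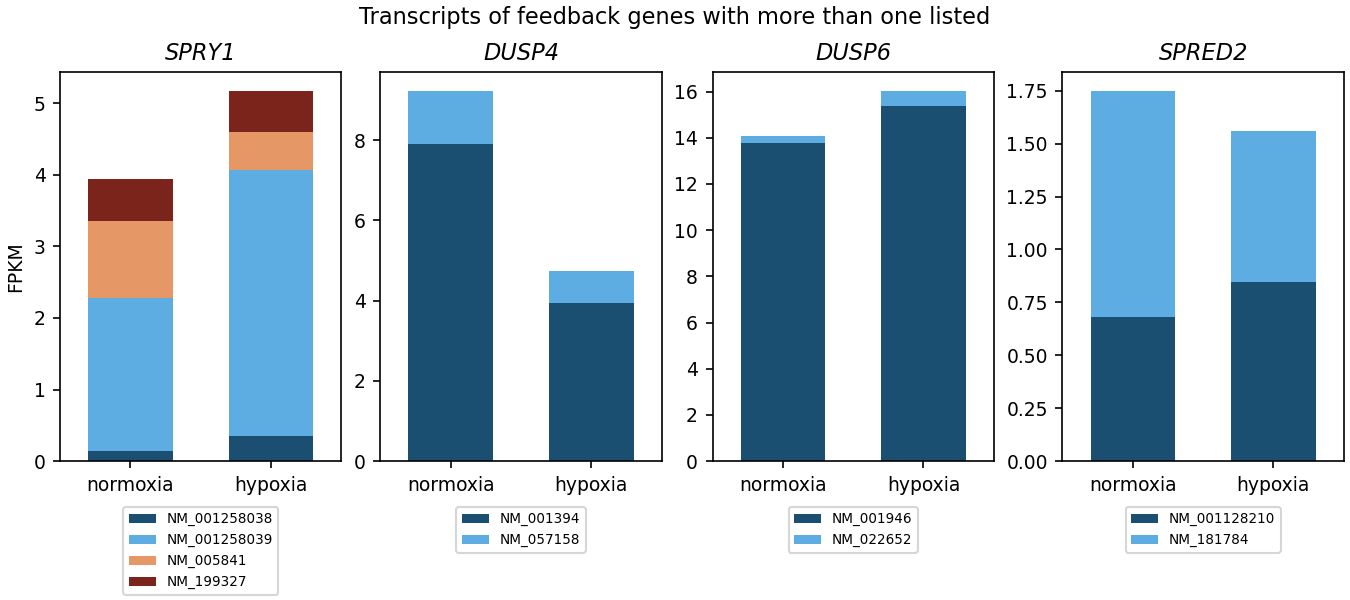
FPKM of each listed transcript, stacked per gene, in normoxia and in hypoxia for the 4 genes with more than 1 listed transcript, each with its own axis from 0. In *SPRY1* the NM_001258039 segment is larger in hypoxia (3.71 against 2.14 FPKM) and the NM_005841 segment smaller (0.531 against 1.07), while both segments of *DUSP4* are smaller.

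The labels were checked against genes known to respond to hypoxia and against cell type markers. All 9 listed genes of a list of 10 hypoxia-responsive genes were called higher, with log2 changes from 1.36 to 4.77, the highest being that of *CA9*, followed by *EGLN3* (3.93), *ANKRD37* (3.85) and *BNIP3* (2.83). Of 9 squamous epithelial markers, 8 were listed, from 5.10 FPKM for *KRT6A* to 398 FPKM for *KRT5* in normoxia. Of 10 markers of fibroblasts, leukocytes and endothelial cells, 3 were listed, *COL3A1* at 0.0489 FPKM, *CD68* at 2.36 FPKM and *CDH5* at 4.78 FPKM in normoxia. *CDH5* was at 2.83 FPKM in hypoxia.

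Other brakes on the pathway were compared from lists of genes by function. Beside these lists and those below, 9.95% of all genes were called higher and 11.2% lower, with a median log2 change of -0.07. With equal FPKM sums that median was 0.15, and the shares called were not computed. Of 5 further MAP kinase phosphatases of the same class, *DUSP7*, *DUSP9* and *DUSP16* were listed, and *DUSP9*, an ERK-selective cytoplasmic phosphatase, was the only one called. It was listed at 0.338 FPKM in normoxia against 1.67 in hypoxia (log2 change 2.01), so it passed the FPKM limit through its level in hypoxia. *SPRY3* and *SPRED3* were not analysed here. Of 11 other inhibitors of receptor and ERK signalling, 2 were called higher and none lower, with a median log2 change of 0.30. With equal FPKM sums 4 were called higher and the median was 0.52. *ERRFI1* (MIG6), which blocks the EGF receptor kinase, had 57.8 FPKM in normoxia against 149.9 in hypoxia, a log2 change of 1.37. *ERRFI1* was more abundant than any of the 10 feedback genes in either condition. *IL17RD* (SEF), which holds ERK in the cytoplasm, was listed at 0.324 FPKM in normoxia against 0.706 in hypoxia (0.93) and, like *DUSP9*, lay under the limit in normoxia.

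At the top of the pathway, 4 of the 8 ligands that passed the FPKM limit were called lower and none higher, with a median log2 change of -0.58. Over all genes 11.2% were called lower and 9.95% higher, with a median of -0.07. With equal FPKM sums 3 of the ligands were called lower, *NRG1* no longer being among them. The share of all genes called lower on that scale was not computed. *EREG* (epiregulin) was listed at 4.07 FPKM in normoxia against 1.38 in hypoxia (-1.50), and *AREG* (amphiregulin) at 1.62 and 0.588 FPKM (-1.32), both ligands of the EGF receptor. *FGF2* had 9.50 FPKM in normoxia against 3.70 in hypoxia (-1.34), and *NRG1* (neuregulin) 31.6 and 19.7 FPKM (-0.68). The *AREG* value is uncertain, since its RefSeq identifier had 2 entries at the same position, with different values, which were summed. Of the 8 receptors that passed, *IGF1R* (1.72 and 2.94 FPKM, 0.74) and *FGFR3* (1.85 and 2.89 FPKM, 0.62) were called higher and none was called lower. *EGFR* was not analysed here.

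Between receptor and ERK, 4 of 21 genes were called higher and 1 lower, with a median log2 change of 0.02. Over all genes the shares were 9.95% and 11.2%, and the median was -0.07. *HRAS* was listed at 9.58 FPKM in normoxia against 4.93 in hypoxia (-0.94). *SOS1*, which loads RAS with GTP, had 4.64 and 7.47 FPKM (0.68), and the adaptor *GAB1* 2.21 and 3.40 FPKM (0.60). *MAP2K1*, which encodes the ERK kinase MEK1 and is named here after its value was seen, had 24.8 and 37.5 FPKM (0.60). *MAPK3*, which encodes the kinase ERK1, was listed at 3.30 and 5.29 FPKM (0.67).

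Among 20 transcripts known to respond to ERK, 15 passed the FPKM limit, of which 5 were called higher and 4 lower, with a median log2 change of -0.06. The shares of all genes were 9.95% higher and 11.2% lower, and their median was -0.07. *FOS* was listed at 0.605 FPKM in normoxia against 3.27 in hypoxia (2.26), *KLF6* at 5.72 and 11.3 FPKM (0.96) and *JUNB* at 1.02 and 2.08 FPKM (0.96). *CCND1* (cyclin D1) was listed at 75.7 FPKM in normoxia against 40.3 in hypoxia (-0.91). These transcripts did not share a direction. With equal FPKM sums the median became 0.16 for these transcripts and 0.15 for all genes, and the ligands were at -0.36.

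**Figure D4:**
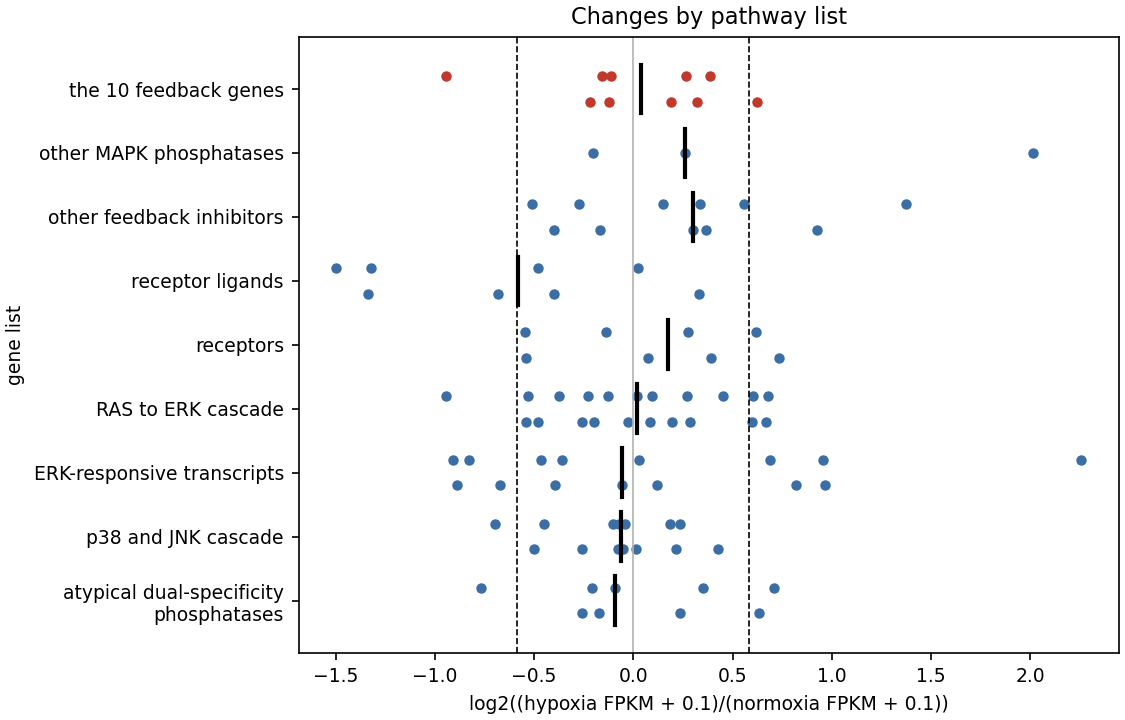
Log2 change of each gene that passed the FPKM limit, by list, with the feedback genes in red, list medians as black bars and 1.5-fold as dashed lines. The points are staggered in height for legibility, and the ligands have the lowest median (-0.58).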

How the data were processed

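The analysis used the authors' deposited table of SQ20B transcripts, in which FPKM is given as 1 value per condition over 4 replicates. Per the labels and the paper, poly(A)-selected stranded libraries were aligned to hg19 with STAR 2.3.0.1, and transcripts were quantified with Cufflinks 2.1.1 and RefSeq annotation. The columns with the authors' own comparison (fold change, test statistic, p-value and q-value) were not used. A planned replicate test was not run, because replicate values were not analysed here, and the deposited table holds no read counts from which the depth per sample could be computed.

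RefSeq identifiers were paired with symbols through the annotation of GRCh38.p14, which matched 24293 of 24812 entries (97.9%), and FPKM was summed per gene. A pseudocount of 0.1 was added before taking log2, which understates changes at low FPKM, and a mean FPKM of 0.5 was required. Locus starts were raised by 1 to count from 1: 3079 genes had a start 1 below that of the GRCh37 annotation, and 359 an equal one. The calling step was tested on simulated data.

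Named from each list were at most 4 called genes with the largest changes, or the largest change where none was called, and *EGFR* and *MAPK3* in any case. One further gene that was to be named in any case is not reported here. The genes and lists were chosen with earlier results of these data known. Alternatives covered the pseudocount, FPKM limit, fold, scaling and transcript choice. Python 3.11.15, numpy 2.4.6, pandas 2.3.3 and matplotlib 3.10.9 were used.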

Additional observations from a re-analysis of the deposited data

How the results depend on the processing

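No paired analysis was possible because values of single replicates were not analysed here, and for the same reason no replicate was left out in turn. The calls of *DUSP10* and *DUSP4* held under each pseudocount, FPKM limit, scaling and transcript choice that was tried, with log2 changes of 0.60 to 0.85 and -0.99 to -0.72. The count of feedback genes called higher was 1. It was 2 with equal FPKM sums and 2 with only the most abundant transcript of each gene, *SPRY1* being the added gene both times. The shares of all genes called were not computed for either setting. The count of feedback genes called higher was 4 at 1.2-fold, and at 2-fold the counts were 0 higher and 0 lower. With equal FPKM sums the median change of the 10 genes was 0.26, against 0.15 over all genes. Changes below 0 became positive on that scale for *SPRY2* (0.11), *SPRY4* (0.0708), *SPRED1* (0.0025), *SPRED2* (0.0555) and NM_199327 of *SPRY1* (0.17). With equal FPKM sums 3 of the transcripts were called higher and 2 lower, in place of 2 and 3. With a pseudocount of 1, only 1 of the transcripts, NM_001394 of *DUSP4*, was called lower in place of 3. The shares of all transcripts called were not computed for either setting. Over all pathway lists but the hypoxia check, 16 genes were called higher and 11 lower, against 9.95% and 11.2% of all genes. By list, 3, 9, 11, 8, 8, 21, 14 and 15 genes passed the FPKM limit. The counts called were 28 and 27 at 1.2-fold, against 23.8% and 33% of all genes. At 2-fold they were 3 and 3, against 3.21% and 2.62%. With equal FPKM sums 21 were called higher and 7 lower, and the shares of all genes on that scale were not computed. The low FPKM of *SPRY4*, *SPRED2* and the minor transcripts and the missing replicate values limit what can be said of them.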

Other observations

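The p38 and JNK kinases are the preferred substrates of *DUSP10*, and 14 of 15 genes of their cascade passed the FPKM limit. None was called higher, against 9.95% of all genes, and 1 was called lower, against 11.2%. The median log2 change was -0.06, which was 0.16 with equal FPKM sums, where 1 was called higher and none lower. On that scale the median over all genes was 0.15, and the shares of all genes called were not computed. The gene called lower without that scaling was *MAP2K3*, an activator of p38, listed at 2.56 FPKM in normoxia against 1.54 in hypoxia (-0.70). This call was lost with equal FPKM sums. *MAPK14*, which encodes p38 alpha, was at 26.0 and 29.6 FPKM (0.19), and *MAPK8*, which encodes JNK1, at 23.9 and 22.3 FPKM (-0.10). Both are named after their values were seen.

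The atypical dual-specificity phosphatases are small enzymes without the kinase-binding domain of the MAP kinase phosphatases. Of 10 such genes 9 passed the FPKM limit, of which 2 were called higher and 1 lower, against 9.95% and 11.2% of all genes. The median log2 change of the 9 genes was -0.09 and became 0.11 with equal FPKM sums. *DUSP3* (VHR) was listed at 20.3 FPKM in normoxia against 31.5 in hypoxia (0.63), close in level and change to *DUSP10*. *DUSP18* had 1.41 and 2.36 FPKM (0.71). *DUSP12* was at 34.5 FPKM in normoxia against 20.3 in hypoxia (-0.77), a call that was lost with equal FPKM sums. On that scale 2 of these atypical phosphatase genes were called higher and none lower, and the shares of all genes called were not computed.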
